A study of Homo sapiens with 6 samples.

Results

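The genes examined here were 10 regulators of epithelial identity and of the epithelial-mesenchymal transition (EMT), chosen by name: SNAI1, SNAI2, ZEB1, ZEB2, TWIST1, GRHL2, ESRP1, ESRP2, OVOL1 and OVOL2. Each name matched 1 gene, so the 10 regulators were 10 of the 58735 genes in the table. Their RNA was measured in AsPC-1, an established human pancreatic cancer cell line. Of the 6 libraries, 3 were from cells that had received an empty lentivirus (Vector, coded NC in the labels) and 3 from cells that had received a lentivirus with the coding sequence of MMP28 with GFP and a puromycin resistance gene (OE-MMP28, coded OE). Cells of both groups carried an integrated lentivirus and came from puromycin-selected stable pools, and MMP28 encodes a secreted matrix metalloproteinase. The study measured E-cadherin, N-cadherin and vimentin protein in such cells, and reported more N-cadherin and vimentin protein with MMP28 overexpression. With MMP28 knockdown, it reported more E-cadherin protein. The comparison made here gives the RNA of the 10 regulators and no protein. Nothing in the labels said that the replicates were separate cultures, so p-values measure the spread between these libraries, which may be technical.

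In EMT, epithelial cells lose cell-cell junctions and apical-basal polarity and acquire migratory properties. Zinc-finger and basic helix-loop-helix repressors of the SNAI, ZEB and TWIST families bind E-box sequences and repress CDH1, the gene of E-cadherin. The GRHL and OVOL factors act on the epithelial side and repress ZEB1 among other genes, whereas the RNA-binding proteins ESRP1 and ESRP2 keep transcripts such as those of CD44 and FGFR2 in their epithelial splice forms. The microRNAs of the miR-200 family lower ZEB1 and ZEB2, which in turn repress the miR-200 genes.

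Total counts ranged from 13633249 to 16691458 per library. MMP28 had 5.17, 9.11 and 8.43 FPKM (fragments scaled to gene length in kilobases and to the library total) in the Vector libraries and 13.1, 13.9 and 15.1 FPKM in the OE-MMP28 libraries. Its groups did not overlap, and it was 1.87-fold higher in OE-MMP28 (95% interval 1.41 to 2.47, adjusted p = 0.00226, edgeR quasi-likelihood test with Benjamini-Hochberg adjustment over 15319 genes). The share of counts on mitochondrial genes was 13.7% ± 1.62 (SD, n = 3) in Vector and 10.8% ± 1.71 (SD, n = 3) in OE-MMP28, and removing those genes changed no call among the regulators. The line had the RNA profile of an epithelial cell with much vimentin: EPCAM stood at 313 ± 12.2 FPKM (SD, n = 3), CDH1 at 20.3 ± 2.61 FPKM and VIM at 256 ± 32.2 FPKM in Vector, while CDH2, the gene of N-cadherin, had a count of 0 in all 6 libraries. In bulk RNA, fewer cells of a type and less RNA per cell cannot be told apart.

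ZEB1 and ESRP1, which stand on opposite sides of the EMT circuit, were both lower in OE-MMP28, and OVOL1 was higher. Of the 10 regulators, 8 had enough counts to be tested. At an adjusted p under 0.05, 1 was higher, against 11.7% of all genes tested, and 2 were lower, against 11.6% of all genes tested. The remaining 5 tested regulators were SNAI1, SNAI2, ZEB2, ESRP2 and OVOL2, and none of them passed the test. Relative to the median of the genes within 10 Mb of each regulator, 0 were higher (7.19% of all genes tested) and 0 were lower (7.99% of all genes tested) by edgeR, with ZEB1 at a log2 fold change of -0.074 (adjusted p = 0.803), and 2 had an unadjusted p under 0.05. FPKM ranges of the groups did not overlap for 1 regulator that was higher (19.0% of all genes tested) and for 4 that were lower (19.1% of all genes tested), namely ESRP1, ZEB1, ESRP2 and OVOL2. An unadjusted p under 0.05 was reached by 3 regulators, the same 3 that passed after adjustment. The share of all genes with an unadjusted p under 0.05 is not given here, so the counts at that threshold have no background. With the study's own thresholds, which are p under 0.05 together with a log2 fold change beyond 1 in size, 0 regulators were higher (3.45% of all genes tested) and 0 were lower (5.05% of all genes tested) by edgeR, DESeq2 and limma. OVOL1, at a log2 fold change of 0.99, was the closest and passed on leaving out Vector replicate 2, Vector replicate 3 or OE-MMP28 replicate 3. The median log2 fold change of the 8 regulators was -0.35, and that of all genes tested was 0.014.

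The regulators spanned levels from 0 to 16.0 FPKM. In Vector the order of mean FPKM was ESRP1, SNAI2, ZEB1, ESRP2, OVOL2, OVOL1, SNAI1, ZEB2, GRHL2 and TWIST1, and the ranges of neighbours in this order overlapped only for SNAI2 with ZEB1, OVOL1 with SNAI1 and GRHL2 with TWIST1. In OE-MMP28 the order was the same, but the ranges overlapped for ESRP1 with SNAI2, for OVOL2 with OVOL1 and for GRHL2 with TWIST1. RNA of an epithelial splicing regulator and of 2 EMT repressors was therefore present in the same libraries, whereas ZEB2 had at most 27 counts and GRHL2 and TWIST1 at most 1.

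**Figure D1:**
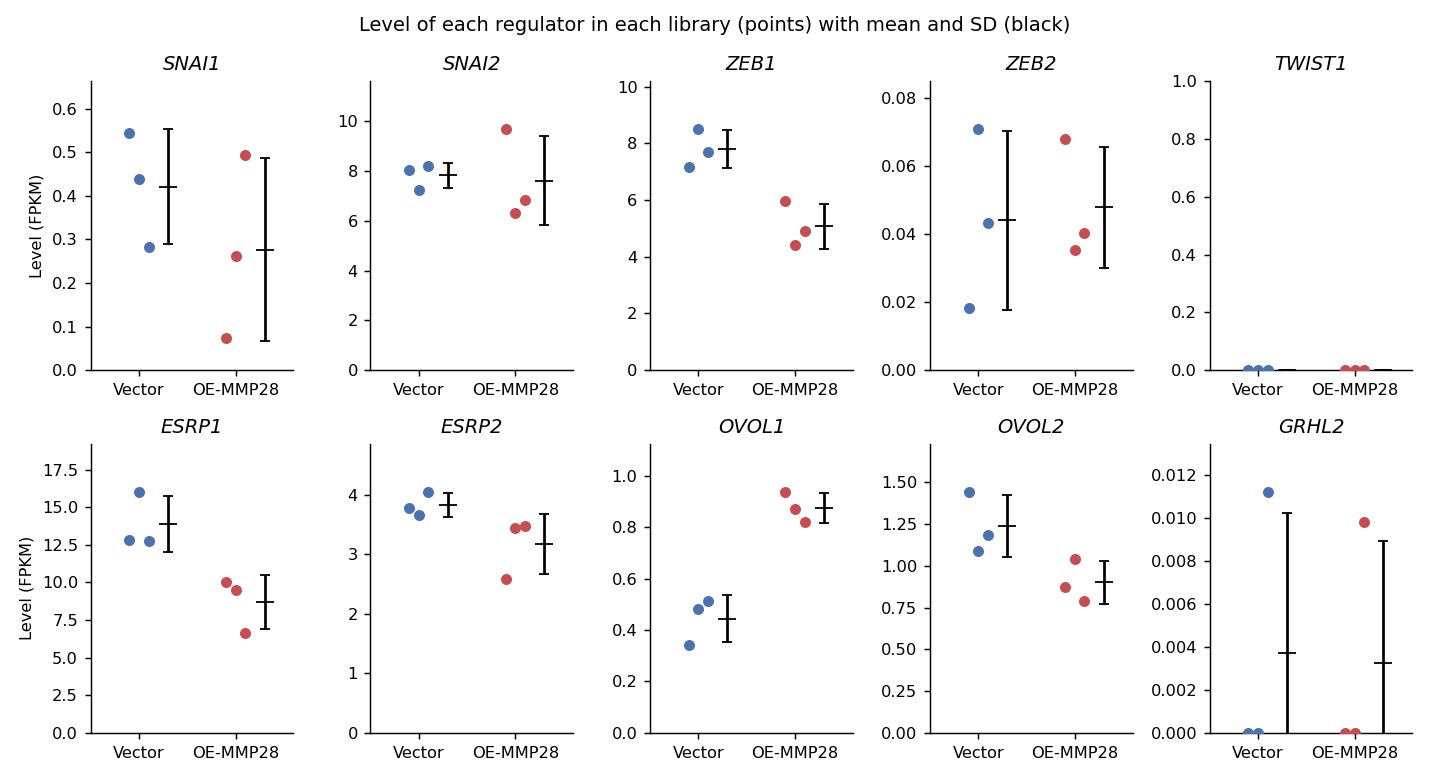
Level of the 10 regulators in FPKM (vertical axes, each from 0) in the 3 Vector libraries (blue) and the 3 OE-MMP28 libraries (red), with mean and SD in black. The OE-MMP28 points of ZEB1 and ESRP1 lie below every Vector point, those of OVOL1 lie above every Vector point, and TWIST1 is at 0 throughout.

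ZEB1 (ENSG00000148516, chr10:31318495-31529814 on GRCh38), a zinc-finger and homeodomain repressor of E-cadherin and other epithelial genes, had 948, 993 and 982 counts in Vector and 814, 603 and 712 counts in OE-MMP28. Its level was 7.17, 8.49 and 7.70 FPKM in Vector and 5.95, 4.40 and 4.89 FPKM in OE-MMP28. Every OE-MMP28 library was below every Vector library, with OE-MMP28 replicate 2 the lowest. The log2 fold change was -0.61 (SE 0.16, 95% interval -0.94 to -0.28, adjusted p = 0.0091), a level 0.656 times that of Vector. Leaving out OE-MMP28 replicate 2 moved it to -0.53 (adjusted p = 0.0825), and relative to its neighbours it was -0.074 (adjusted p = 0.803). The antisense gene ZEB1-AS1 (chr10:31206278-31320447), which begins inside ZEB1 and is read in the opposite direction, had 161, 146 and 175 counts in Vector and 132, 93 and 117 counts in OE-MMP28. It was also lower (log2 fold change -0.64, SE 0.21, adjusted p = 0.0311), but the call was lost in 6 of 17 alternative settings, among them the fit relative to its neighbours (-0.11, adjusted p = 0.78). The antisense gene shares 4.23% of the exon bases of ZEB1, and whether the counting used the strand was not given in the sources used here, so reads from the shared bases cannot be told apart.

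The bases just before the ZEB1 start, which lie within ZEB1-AS1 on the other strand, are shown because both RNAs were lower. They are the 250 bases before the ZEB1 start site in RefSeq (chr10:31318167-31318416, plus strand, GRCh38.p14), with the E-box CAGGTG in capitals.
ZEB1 upstream: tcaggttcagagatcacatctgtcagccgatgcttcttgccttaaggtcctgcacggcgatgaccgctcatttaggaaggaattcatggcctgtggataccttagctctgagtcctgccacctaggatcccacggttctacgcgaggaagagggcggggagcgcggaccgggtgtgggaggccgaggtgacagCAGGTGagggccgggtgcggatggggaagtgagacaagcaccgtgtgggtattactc
The letters CAGGTG or their reverse complement CACCTG, the E-box form that SNAI and ZEB factors bind, were searched on both strands. They occur in 20.6% of 27305 RefSeq promoter windows, which run from 250 bases before to 50 bases after a start, and 1 copy begins 57 bases before the ZEB1 start. RefSeq promoter sequences were matched for 2 of the 10 regulators, ZEB1 and ZEB2, and the ZEB2 window holds neither form. The letters CCGTTA or TAACGG, the core that OVOL factors bind, occur in 3.15% of windows and in the ZEB2 window. A match of letters is a description and does not show binding.

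ZEB1 and ZEB2 RNA also carry many matches to the miR-200 seeds, which are shown because the other regulators have at most 1 match to each seed. The mature microRNAs (RefSeq, GRCh38.p14) fall into 2 groups by seed, bases 2 to 8, which is in capitals, and the first 3 share 1 seed and the last 2 the other.
miR-200b-3p: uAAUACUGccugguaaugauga
miR-200c-3p: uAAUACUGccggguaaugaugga
miR-429: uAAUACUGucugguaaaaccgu
miR-200a-3p: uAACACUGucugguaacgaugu
miR-141-3p: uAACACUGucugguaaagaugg
For each gene, the coding transcript with the longest 3′ untranslated region in the GENCODE 29 basic set (GRCh38) was used. The first site of each kind in this region is given for ZEB1 and ZEB2. The 7 bases that pair with the seed are in capitals, CAGTATT for the first group and CAGTGTT for the second.
ZEB1 chr10:31527621-31527642: gttttatcttatCAGTATTatc
ZEB1 chr10:31528034-31528055: aatcatcagaatCAGTGTTtgt
ZEB2 chr2:144389050-144389071: actaccatacatCAGTATTttt
ZEB2 chr2:144389234-144389255: aaaaattttgtaCAGTGTTaag
The untranslated region of ZEB1, 2549 bases long, has 6 CAGTATT and 3 CAGTGTT sites, and that of ZEB2, 5370 bases long, has 5 and 4. At least 1 CAGTATT was found in 16.0% of 19115 such regions, 5 or more in 0.0366% and 6 or more in 0.0157%. At least 1 CAGTGTT was found in 18.2%, 3 or more in 1.03% and 4 or more in 0.303%. These shares are over regions of all lengths and were not matched for length. The regions of the other regulators were 484 to 3023 bases long. Of the other regulators, SNAI2 and ESRP1 have 1 CAGTATT each, and GRHL2 and ESRP1 have 1 CAGTGTT each. The libraries measured no mature microRNA. Reads over the hairpin genes were few, 1 to 13 per library for MIR200A, MIR200B and MIR429 and 0 to 3 for MIR200C and MIR141, and none of the 5 passed the filter on low counts.

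ZEB2 (ENSG00000169554, chr2:144364364-144524583), the close relative of ZEB1, was near the limit of detection. It had 7, 24 and 16 counts in Vector and 27, 14 and 17 counts in OE-MMP28, over a gene model of 25058 bases, which came to 0.0183, 0.0709 and 0.0433 FPKM and 0.0681, 0.0352 and 0.0403 FPKM. The groups overlapped. Its log2 fold change was 0.14 with a 95% interval from -0.83 to 1.11 (adjusted p = 0.865), an interval that included a fall of the size found for ZEB1 and a rise of the size found for OVOL1. The antisense gene ZEB2-AS1 and the pseudogene ZEB2P1 had 0 counts in every library.

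SNAI2 (ENSG00000019549, chr8:48917604-48921740), also called Slug, was the EMT repressor with the highest mean FPKM here, at about the level of ZEB1 in Vector. It had 8.04, 7.24 and 8.18 FPKM in Vector and 9.67, 6.32 and 6.85 FPKM in OE-MMP28, from 332 to 519 counts. OE-MMP28 replicate 1 was above every Vector library and the other OE-MMP28 libraries were below every one. Its log2 fold change was -0.031 (SE 0.18, 95% interval -0.40 to 0.34, adjusted p = 0.925), and its sign changed without any of 3 libraries, Vector replicate 3 (0.0043), OE-MMP28 replicate 2 (0.073) and OE-MMP28 replicate 3 (0.035).

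SNAI1 (ENSG00000124216, chr20:49982999-49988886), or Snail, had 14, 10 and 7 counts in Vector and 2, 7 and 14 counts in OE-MMP28, or 0.543, 0.439 and 0.282 FPKM and 0.0750, 0.262 and 0.494 FPKM. The highest OE-MMP28 library stood between the top Vector libraries, so the groups overlapped. Its log2 fold change of -0.57 had a 95% interval from -1.77 to 0.63 (adjusted p = 0.514). When OE-MMP28 replicate 3 was left out it was -1.29, and when OE-MMP28 replicate 1 was left out it was -0.15, and a difference of SNAI1 was not detectable at this depth. TWIST1 (ENSG00000122691, chr7:19020991-19117672), the basic helix-loop-helix member, had 0 counts in all 6 libraries. A count of 0 allows up to 3 counts, or 0.180 to 0.220 CPM (counts scaled to the library total) depending on the library. The nearest tested gene on 1 side, TWISTNB, had a mean of 16.0 FPKM, and that on the other side, HDAC9, had 0.789 FPKM.

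ESRP1 (ENSG00000104413, chr8:94641074-94707466), which promotes epithelial splice forms, had the highest mean FPKM of the 10 regulators in both groups. Its level was 12.8, 16.0 and 12.8 FPKM in Vector and 10.01, 9.48 and 6.64 FPKM in OE-MMP28, from 954, 1055 and 918 counts against 772, 733 and 545 counts. Every OE-MMP28 library was below every Vector library, with OE-MMP28 replicate 3 the lowest. The difference was -0.66 on the log2 scale (SE 0.17, 95% interval -1.02 to -0.30, adjusted p = 0.00908), a level 0.633 times that of Vector. Leaving out OE-MMP28 replicate 3 moved it to -0.50 (adjusted p = 0.0537), and the adjusted p in limma on log2(FPKM + 0.1) was 0.0503.

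ESRP2 (ENSG00000103067, chr16:68229111-68238102), the paralogue with overlapping splicing targets, had 3.79, 3.66 and 4.05 FPKM in Vector and 2.59, 3.45 and 3.48 FPKM in OE-MMP28. The ranges did not overlap, but the closest libraries, 3.66 and 3.48 FPKM, differed by less than the OE-MMP28 libraries did among themselves. On the log2 scale the difference was -0.26 (SE 0.18, 95% interval -0.63 to 0.12, adjusted p = 0.322). The difference between the paralogues was examined only through their ratio. NFATC3, read from the other strand, shares 2.68% of the ESRP2 exon bases and had 125 to 219 counts.

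OVOL1 (ENSG00000172818, chr11:65787022-65797219), a zinc-finger repressor of mesenchymal genes, was the regulator that was higher in OE-MMP28. It had 20, 25 and 29 counts in Vector and 57, 53 and 53 counts in OE-MMP28, or 0.340, 0.481 and 0.511 FPKM and 0.936, 0.869 and 0.818 FPKM. All OE-MMP28 libraries were above all Vector libraries. The difference was 0.99 on the log2 scale (SE 0.31, 95% interval 0.34 to 1.64, adjusted p = 0.0259), or 1.98-fold. The call rested on few reads: the adjusted p was above the threshold without Vector replicate 1 (0.0766) or OE-MMP28 replicate 1 (0.0671), 2 (0.0857) or 3 (0.0536), and in limma on log2(FPKM + 1), where it was 0.121, or on log2(FPKM + 0.1), where it was 0.138. AP001266.1, on the other strand, shares 27.1% of the OVOL1 exon bases and had 0 counts in every library.

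OVOL2 (ENSG00000125850, chr20:17956979-18059188), whose product represses ZEB1, did not pass the test. It had 1.44, 1.09 and 1.19 FPKM in Vector and 0.872, 1.04 and 0.792 FPKM in OE-MMP28, from 29 to 48 counts. The ranges were separated by the gap between 1.09 and 1.04 FPKM alone, and the log2 fold change was -0.45 (SE 0.31, 95% interval -1.10 to 0.21, adjusted p = 0.327). SNX5, on the same strand, shares 2.71% of the OVOL2 exon bases and had 2517 to 4804 counts, so a small part of the OVOL2 count may depend on how shared reads were assigned. GRHL2 (ENSG00000083307, chr8:101492432-101669726), a Grainyhead factor that activates E-cadherin, had 0, 0 and 1 counts in Vector and 0, 0 and 1 counts in OE-MMP28. The nearest tested gene on 1 side, ZNF706, had a mean of 18.5 FPKM, and that on the other side, NCALD, had 0.196 FPKM.

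**Figure D2:**
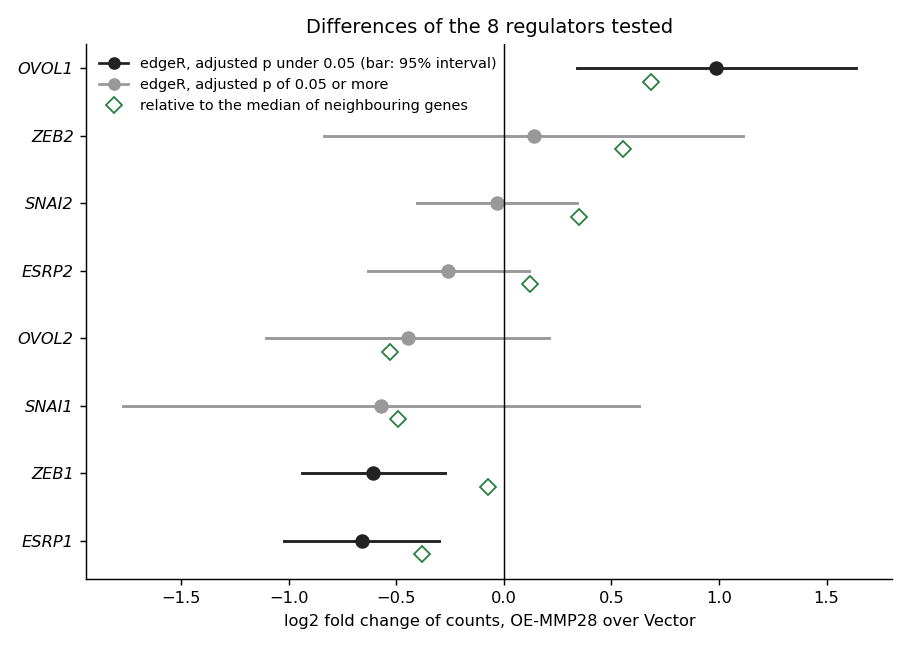
The log2 fold change of each of the 8 tested regulators (horizontal axis, OE-MMP28 over Vector), as points with bars for the 95% interval. Black marks an adjusted p under 0.05 and grey a larger one, and green diamonds give the value relative to the median of neighbouring genes. The diamond of ZEB1 lies at -0.074 and those of ESRP1 and OVOL1 lie nearer to 0 than their points.

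To compare regulators with each other and with CDH1 within a library, ratios of FPKM were compared for 6 pairs by two-sided exact permutation tests, which with 3 libraries a group cannot go below p = 0.1. The ratio of ESRP1 to ZEB1 was 1.79, 1.89 and 1.66 in Vector and 1.68, 2.16 and 1.36 in OE-MMP28, so the groups overlapped (exact permutation p = 0.9, adjusted over the 6 ratios p = 1.0). ZEB1 over SNAI2 was 0.891, 1.17 and 0.942 in Vector and 0.615, 0.695 and 0.714 in OE-MMP28, lower in every OE-MMP28 library (exact permutation p = 0.1, adjusted p = 0.3). OVOL1 over OVOL2 was 0.235, 0.441 and 0.431 in Vector and 1.07, 0.832 and 1.03 in OE-MMP28, higher in every OE-MMP28 library (exact permutation p = 0.1, adjusted p = 0.3). The ratios with CDH1 overlapped between groups, at 0.687 ± 0.0915 against 0.647 ± 0.0417 (SD, n = 3) for ESRP1 (exact permutation p = 0.6) and 0.388 ± 0.0600 against 0.385 ± 0.0782 for ZEB1 (exact permutation p = 1.0). CDH1 itself was lower in OE-MMP28, with a log2 fold change of -0.59 (SE 0.16, adjusted p = 0.0113). The call of CDH1 was lost in 4 of 17 alternative settings, which were the fit relative to its neighbours (-0.22, adjusted p = 0.395), the fit without OE-MMP28 replicate 3 (-0.46, adjusted p = 0.0609) and limma on log2(FPKM + 1) and on log2(FPKM + 0.1), where the adjusted p was 0.0502 and 0.0514. ESRP1 over ESRP2 was 3.64 ± 0.651 in Vector and 2.84 ± 0.981 in OE-MMP28 (exact permutation p = 0.4). None of these p-values could pass 0.05 in this design.

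The medians of the genes around ZEB1, ESRP1 and OVOL1 had the same sign as the regulator. The counts of neighbours are to be read against 11.7% higher and 11.6% lower over all genes tested. Within 10 Mb of ZEB1, 59 other genes were tested, of which 27 were lower and 1 was higher at an adjusted p under 0.05, with a median log2 fold change of -0.53. The median of the 609 other tested genes of chromosome 10 was -0.47. Around ESRP1, 83 genes had a median of -0.28, with 18 lower and 5 higher. The 541 other tested genes of chromosome 8 had a median of -0.34, further below 0 than that of the ESRP1 neighbours. ESRP1 relative to its neighbours stood at -0.38 (adjusted p = 0.149). Around OVOL1, 329 genes had a median of 0.31, with 81 higher and 11 lower, the chromosome 11 median was 0.26, and OVOL1 relative to its neighbours stood at 0.68 (adjusted p = 0.149). The part of the regions in the differences of these regulators was not tested beyond these values.

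**Figure D3:**
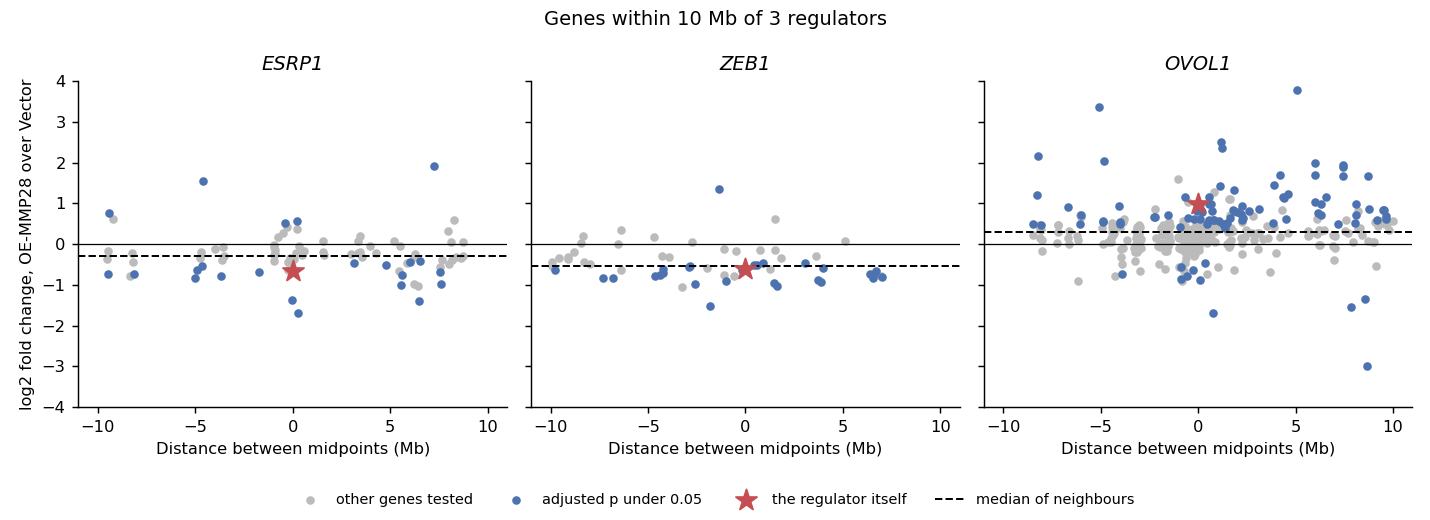
Plotted is the log2 fold change (vertical axis, OE-MMP28 over Vector) of tested genes within 10 Mb of ESRP1, ZEB1 and OVOL1, against the distance between gene midpoints in Mb (horizontal axis). The star is the regulator, blue points passed an adjusted p under 0.05, and the dashed line is the median of the neighbours, at -0.28, -0.53 and 0.31.

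Neighbours of SNAI2, ESRP2, ZEB2 and SNAI1, which did not pass the test, also had medians below 0. The 54 genes around SNAI2 had a median of -0.38, the 153 around ESRP2 also -0.38, and the 27 around ZEB2 -0.42. Relative to these medians, SNAI2 stood at 0.35 (adjusted p = 0.201), ESRP2 at 0.12 (adjusted p = 0.708) and ZEB2 at 0.55, so SNAI2 and ESRP2 changed sign. Around ESRP2, 41 neighbours were lower and 3 were higher, although the 785 other tested genes of chromosome 16 had a median of 0.0023. SNAI1 and OVOL2, both on chromosome 20, had neighbours with medians of -0.081 and 0.084.

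For each regulator that passed the test, the 3 genes of mean at least 1 FPKM with the most similar profile over the 6 libraries were found among 12258 genes, by the root-mean-square (RMS) difference of centred log2 CPM. For ZEB1 these were CPNE8 (RMS 0.0443), ATG12 (0.0589) and FAM149B1 (0.0610). For ESRP1 they were KLF7 (RMS 0.0645), KIAA0895 (0.0707) and NEO1 (0.0770), and for OVOL1 SYTL2 (0.0790), SOSTDC1 (0.0830) and AGMO (0.0898). FAM149B1 and SYTL2 lie on the chromosomes of ZEB1 and OVOL1. The likeness is a description over 6 libraries in 2 groups.

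Beyond the regulators, 9 lists of genes around them held 157 tested genes, of which 27 were higher and 26 were lower, with a median log2 fold change of -0.057. Over all genes tested 11.7% were higher and 11.6% were lower, and the counts of the single lists, most of them small, are to be read against these shares. Other transcription factors with a role in EMT gave 2 higher and 3 lower of 10 tested (median -0.086). The forkhead factor FOXQ1 fell from 6.85 ± 2.11 to 2.18 ± 0.561 FPKM (SD, n = 3; log2 fold change -1.63, adjusted p = 0.00011). FOXC1, another forkhead factor, fell from 17.3 ± 1.26 to 9.45 ± 0.116 FPKM, and SOX4, an HMG-box factor, from 20.5 ± 1.74 to 11.4 ± 1.11 FPKM. HMGA2, an architectural chromatin protein, rose from 16.7 ± 3.48 to 32.0 ± 4.58 FPKM (log2 fold change 0.95, adjusted p = 0.000442). TWIST2, PRRX1, GSC and FOXC2 had at most 1 count in any library.

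Other epithelial transcription factors gave 1 higher and 1 lower of 10 tested (median -0.34). FOXA1, a pioneer factor of endodermal epithelia, fell from 3.90 ± 1.08 to 1.15 ± 0.286 FPKM (log2 fold change -1.75, adjusted p = 4.39e-05). KLF4, a zinc-finger factor of epithelia, rose from 19.3 ± 3.88 to 26.6 ± 1.06 FPKM, but passed in only 7 of 17 alternative settings. The Grainyhead paralogues GRHL1 and GRHL3 stood at 0.252 ± 0.0511 and 0.856 ± 0.0362 FPKM in Vector and at 0.120 ± 0.103 and 0.525 ± 0.130 FPKM in OE-MMP28, with adjusted p of 0.107 and 0.103.

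Splicing factors other than ESRP1 and ESRP2 gave 4 higher and 2 lower of 17 tested (median 0.062). TIA1, an RNA-binding protein of U-rich introns and stress granules, fell from 27.7 ± 5.77 to 13.0 ± 1.68 FPKM (log2 fold change -1.08, adjusted p = 0.000133), and RBFOX2 fell with a log2 fold change of -0.49. MBNL1, HNRNPM and SRSF3, which encode further RNA-binding splicing factors, rose with log2 fold changes of 0.55, 0.47 and 0.42, but SRSF3 passed in only 4 of 17 alternative settings and HNRNPM in 10. RBFOX2 and MBNL1 each passed in 12. MBNL1 stood at -0.027 relative to its neighbours, and it shares 11.4% of its exon bases with MBNL1-AS1. Genes whose transcripts ESRP proteins splice gave 2 higher and 2 lower of 13 tested (median 0.029). EPB41L5, a FERM-domain protein of the polarity machinery, fell from 4.01 ± 0.287 to 1.41 ± 0.348 FPKM (log2 fold change -1.50, adjusted p = 9.55e-06), and SLK, a kinase, fell from 39.8 ± 3.16 to 25.5 ± 4.90 FPKM. CD44, the hyaluronan receptor, rose from 26.4 ± 2.20 to 45.1 ± 3.70 FPKM (log2 fold change 0.78, adjusted p = 0.000585). Relative to its neighbours SLK stood at -0.17 (adjusted p = 0.514). The table has 1 value per gene, so splice forms were not analysed here.

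**Figure D4:**
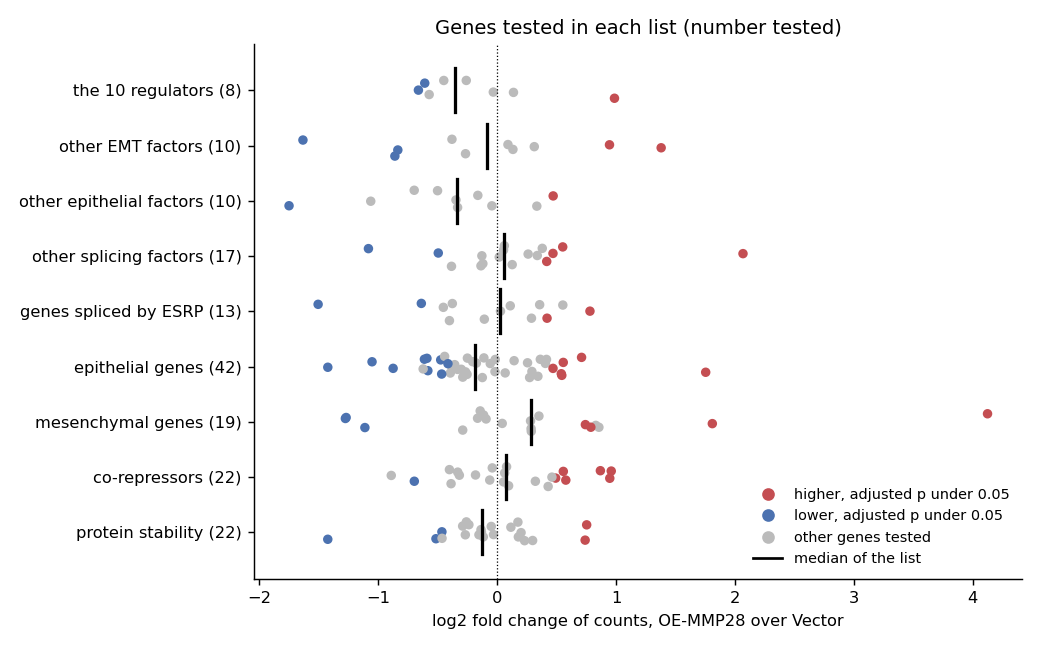
Each point is the log2 fold change (horizontal axis, OE-MMP28 over Vector) of 1 tested gene in the list of regulators and in 8 of the lists around them, with the number tested in brackets. Red and blue points were higher and lower at an adjusted p under 0.05, and the black bar is the median, which lies between -0.35 for the regulators and 0.28 for the mesenchymal genes.

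Genes of epithelial junctions, polarity and keratins gave 6 higher and 9 lower of 42 tested (median -0.19). CDH3, the gene of P-cadherin, fell from 2.01 ± 0.633 to 0.742 ± 0.139 FPKM (log2 fold change -1.42, adjusted p = 0.000408), and the tight-junction claudins CLDN3 and CLDN4 fell with log2 fold changes of -1.05 and -0.61. EPPK1, a keratin linker, fell with a log2 fold change of -0.87. KRT19 rose from 624 ± 34.1 to 1012 ± 140 FPKM (log2 fold change 0.71, adjusted p = 0.00175). Mesenchymal genes gave 4 higher and 3 lower of 19 tested (median 0.28), and 6 of the 35 genes on this list had 0 counts in every library. TNC, a matrix glycoprotein, rose from 1.67 ± 0.599 to 5.83 ± 0.254 FPKM, and NT5E, a surface nucleotidase, from 53.8 ± 8.49 to 92.4 ± 12.5 FPKM. ACTA2 and LAMB1, which encode smooth muscle actin and a laminin chain, fell with log2 fold changes of -1.27 and -1.11. VIM had a log2 fold change of -0.16 (adjusted p = 0.46) and overlapping groups. No rise of VIM or CDH2 RNA was found beside the higher vimentin and N-cadherin protein that the study reported. CDH1 RNA was lower in the main fit, and the higher E-cadherin protein of the study was in knockdown cells, which are not among these libraries. ACTA2 shares 12.8% of its exon bases with FAS, which was itself lower, so its value is uncertain.

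Co-repressors that SNAI and ZEB proteins recruit gave 6 higher and 1 lower of 22 tested (median 0.072). PRMT5, a protein arginine methyltransferase, rose from 11.9 ± 2.41 to 23.0 ± 3.23 FPKM, EED, a subunit of Polycomb complex PRC2, from 4.23 ± 0.734 to 8.11 ± 0.990 FPKM, and RCOR1, the CoREST scaffold, from 14.1 ± 1.89 to 25.6 ± 4.69 FPKM. DNMT1, the maintenance DNA methyltransferase, rose with a log2 fold change of 0.58. KDM1A, the histone demethylase that binds CoREST, fell from 45.9 ± 11.3 to 28.2 ± 2.91 FPKM (log2 fold change -0.69, adjusted p = 0.00524). PRMT5 shares 27.1% of its exon bases with PRMT5-AS1, which had 2 to 9 counts. Relative to their neighbours on chromosome 14, RCOR1 and PRMT5 stood at 0.32 (adjusted p = 0.195) and 0.38 (adjusted p = 0.143). Genes that control the stability or translation of SNAI, ZEB and TWIST proteins gave 2 higher and 3 lower of 22 tested (median -0.12). PDCD4, an inhibitor of translation, fell from 19.9 ± 0.617 to 7.38 ± 0.519 FPKM (log2 fold change -1.42, adjusted p = 1.51e-06), and the F-box genes BTRC and FBXO11 fell with log2 fold changes of -0.51 and -0.46. STUB1 and FBXO45, which encode parts of ubiquitin ligases, rose with log2 fold changes of 0.75 and 0.74. Relative to their neighbours, BTRC stood at -0.038, FBXO11 at -0.085 and FBXO45 at 0.35, and none of these 3 passed. PDCD4, FBXO11 and STUB1 share 28.1%, 25.2% and 42.4% of their exon bases with BBIP1, MSH6 and JMJD8 on the other strand, so their values are uncertain. The last list, of microRNA host and antisense genes, had 2 genes tested, ZEB1-AS1 and SNAI3-AS1, and both were lower, the second with a log2 fold change of -0.91. In both limma fits on FPKM and in the fit relative to neighbours, 0 genes of this list were called lower. The count was also 0 without Vector replicate 3 or without OE-MMP28 replicate 3.

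Most markers of other cell types were near 0, with LUM and LYZ as the exceptions. Of the fibroblast markers, 1 of 9 passed the filter, LUM with 1499 to 2707 counts, while PDGFRA had 0 counts and COL1A1, COL1A2, COL3A1, DCN, PDGFRB, FAP and THY1 had at most 11 counts in any library. Of the leukocyte markers, 2 of 8 were tested, LYZ with 3118 to 4655 counts and CD14 with 17 to 30 counts, and PTPRC had at most 1 count and CD3E 0. LYZ was lower in OE-MMP28 (log2 fold change -0.45, adjusted p = 0.0376). Of the endothelial markers, 2 of 5 were tested, KDR and TEK had 0 counts, and PECAM1 rose from 0, 4 and 4 counts to 13, 21 and 30 counts (adjusted p = 0.00361). The summed level of the endothelial markers ranged from 0.0441 to 0.170 FPKM in Vector and from 0.179 to 0.293 FPKM in OE-MMP28, that of the leukocyte markers from 164 to 186 and from 106 to 146 FPKM, and that of the fibroblast markers from 33.9 to 40.9 and from 39.3 to 57.0 FPKM. Of the ductal markers, 7 of 8 were tested, with 2 higher (MUC1, log2 fold change 2.16, and KRT19) and 1 lower (CDH1), and their summed level ranged from 2592 to 3540 FPKM in Vector and from 3580 to 4374 FPKM in OE-MMP28. The part of these markers in the differences of the regulators was not tested.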

How the data were processed

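RNA-seq data of 3 Vector and 3 OE-MMP28 libraries of AsPC-1 cells were analysed, with groups and replicate numbers taken from the labels. The authors' deposited table held raw counts per gene, neither normalized nor pooled, and FPKM values that the authors computed from those counts and each gene's length. The submitters' processing notes name HISAT2 2.0.5 and featureCounts 1.5.0-p3, and strand use in counting is not given in the sources used here. All 58735 gene identifiers and coordinates were those of GENCODE release 29 on GRCh38. The implied library totals of the FPKM values differed from the summed counts by -2.01% to 2.02%. The table also held 5 columns of the authors' own comparison, namely a value for each group, the log2 fold change between groups and its raw and adjusted p-value, which were not used. No row lacked a gene, and 0 per-sample columns were unmapped.

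Counts were tested with the quasi-likelihood test of edgeR 4.0.16 (R 4.3.3) after filterByExpr (minimum count 10, minimum total 15) and TMM scaling, with the group as the only term. P-values were two-sided and adjusted with the Benjamini-Hochberg procedure over 15319 genes. No 2 libraries were duplicates, since the chi-square statistic per degree of freedom of each pair of one group was at least 13.9. The limit that a count of 0 allows was taken as 3 counts, or 0.180 to 0.220 CPM. It covers counting error only, because the libraries had no molecular identifiers and reads can be copies of 1 molecule. Ratios of FPKM were compared by exact permutation tests.

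Named genes were the 10 regulators, MMP28, CDH1, VIM and CDH2, up to 5 called genes of each list with the largest absolute log2 fold change, non-overlapping groups and a mean of 1 FPKM or more, the 3 genes most like each called regulator, and genes overlapping a regulator. The regulators and lists were chosen with earlier results of these data known. Genes named outside this rule were chosen after their values were seen, and include EPCAM, the flanking genes, markers at low counts, and genes given for not passing the test. Not every gene under this rule is reported here. Of 205 list entries, 202 matched a gene. The test was checked on simulated counts in which 200 genes had a log2 fold change of 1 or 2 in size. It recovered 81.9% of the tested changes of size 1 and 94.5% of those of size 2, and 6.56% of its calls were false. Smaller changes, such as those of ZEB1 and ESRP1, and shifts of whole regions were not simulated. The data had far more genes called, 1795 higher and 1784 lower, than the 200 changed in the simulation. Its shares therefore need not hold for the data. Alternatives were upper-quartile and DESeq2 scaling, no filter, a mean of at least 1 FPKM, DESeq2 1.42.0, limma 3.58.1 (voom, and log2(FPKM + pseudocount) with pseudocounts of 1 and 0.1), the replicate number as a block, an offset for the median of genes within 10 Mb, no mitochondrial genes, and leaving out each library.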

Additional observations from a re-analysis of the deposited data

How the results depend on the processing

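Of 17 alternatives, upper-quartile scaling, DESeq2 scaling, no filter, DESeq2, limma voom, the replicate block and the counts without mitochondrial genes left the number of regulators called at 1 higher and 2 lower. With a mean of at least 1 FPKM, 5 regulators were tested and 0 were higher, as OVOL1 was not among them. In limma on log2(FPKM + 1) 0 were higher, and in limma on log2(FPKM + 0.1) 0 were higher and 1 was lower. OVOL1 had log2 fold changes of 0.38 and 0.85 in these fits, and ESRP1 -0.68 in the second. With the local-median offset 0 were higher and 0 were lower, with ESRP1 at -0.38, ZEB1 at -0.074 and OVOL1 at 0.68, and the signs of SNAI2 (0.35), ESRP2 (0.12), VIM (0.32) and MBNL1 (-0.027) turned. Leaving out each library gave 0 to 1 higher and 1 to 2 lower, with log2 fold changes of -0.78 to -0.50 for ESRP1, -0.74 to -0.53 for ZEB1, 0.83 to 1.11 for OVOL1, -0.24 to 0.073 for SNAI2, -1.29 to -0.15 for SNAI1 and -0.24 to 0.64 for ZEB2. For the lists, limma gave 11 higher and 16 lower of 147 tested with either pseudocount, the local-median offset gave 16 higher, and leaving out each library gave 15 to 25 higher and 16 to 32 lower. The lowest of these came without OE-MMP28 replicate 2 (15 higher) and without OE-MMP28 replicate 3 (16 lower), and 17 were higher without Vector replicate 3. Over all genes tested, the local-median offset gave 1101 higher and 1224 lower, against 1795 and 1784 in the main fit. Both limma fits on FPKM also called fewer of all genes in each direction. So did the fits without OE-MMP28 replicate 2, OE-MMP28 replicate 3 or Vector replicate 3. The falls were therefore not confined to the lists. The causes were not tested. Fits without a library used fewer libraries by construction but tested more genes than the 15319 of the main fit. The local-median offset used the same 6 libraries and 15319 genes. Of 38 named list genes, 18 kept direction and side of the threshold in every alternative run. Replicate numbers did not pair the libraries, as the same-numbered deviations correlated at 0.017, 0.0080 and -0.088. With the replicate block, ESRP1 had an adjusted p of 0.0024, ZEB1 0.00603 and OVOL1 0.0288. The counts of OVOL1, OVOL2, SNAI1 and ZEB2, at most 57 per library, limit what can be said of these 4 genes.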

Other observations

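Some genes of the lists passed the test at a mean below 1 FPKM or outside the limit of 5 genes a list, and were picked here after their values were seen. CALD1, which encodes the actin-binding protein caldesmon, stood at 0.0642 ± 0.0390 FPKM (SD, n = 3) in Vector and 1.11 ± 0.196 FPKM in OE-MMP28 (log2 fold change 4.12, SE 0.34, adjusted p = 6.15e-08). KHDRBS3, an RNA-binding splicing factor, rose from 0.0681 ± 0.0241 to 0.289 ± 0.0235 FPKM (log2 fold change 2.07, adjusted p = 0.000989), and MAL2, a protein of apical transport, from 0.147 ± 0.0445 to 0.501 ± 0.273 FPKM (log2 fold change 1.75, adjusted p = 0.0119). TCF4, the E2-2 basic helix-loop-helix factor, rose from 0.0342 ± 0.0115 to 0.0887 ± 0.0310 FPKM (log2 fold change 1.38, adjusted p = 0.0164), from 9 to 54 counts per library. TGFBI, a matrix protein induced by TGF-beta, rose from 31.9 ± 4.10 to 53.0 ± 1.83 FPKM (log2 fold change 0.74, adjusted p = 0.00107).

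Among the junction genes, CTNNB1 (beta-catenin), TJP1, PATJ and PARD3 fell with log2 fold changes of -0.47, -0.41, -0.58 and -0.47, while the desmosomal plakophilins PKP2 and PKP3 rose with 0.56 and 0.54. PARD3 lies on chromosome 10, as ZEB1 does, where the median of its neighbours was -0.61. SNAI3, the third SNAI gene, did not pass the filter on low counts and stood at 0.289 ± 0.113 FPKM in Vector and 0.0700 ± 0.0687 FPKM in OE-MMP28, with groups that did not overlap and at most 11 counts.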
